A study of Mus musculus with 8 samples.

Results

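The respiratory chain genes were taken from the array by name. A non-control probe was a member when its gene name began with Nduf, Uqcr, Atp5 or Cox followed by 4 to 8, or was Sdha, Sdhb, Sdhc or Sdhd. These names take in most nuclear-encoded subunits of complexes I to V with 4 assembly factors of complex I. Cyc1, a core subunit of complex III, has another kind of name and is not a member, so it is described with the electron carriers. They gave 134 probes of 90 genes, out of 34741 named genes and transcripts on the array. Complex I had 38 genes, complex II 4, complex III 8, complex IV 19, complex V 17 and the Ndufaf assembly factors 4. Each gene was read from the probe with the highest mean, and 87 of the 90 could be tested.

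The respiratory chain sits in the inner mitochondrial membrane. Complex I takes electrons from NADH and complex II takes them from succinate, ubiquinone carries them to complex III, and cytochrome c carries them on to complex IV, where oxygen is reduced. Complexes I, III and IV pump protons, and complex V, the ATP synthase, uses the proton gradient to make ATP. Most subunits are encoded in the nucleus and a few in mitochondrial DNA, so the complexes are built from 2 genomes. In the liver of a newborn mammal, which leaves the placental glucose supply at birth, oxidation of fatty acids through this chain supplies ATP for making glucose.

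Some names in the set do not stand for subunits. Cox4nb is now called Emc8 and belongs to a complex of the endoplasmic reticulum membrane, Cox7a2l is a factor of respiratory supercomplexes, and Atp5s and Atp5sl are now called Dmac2l and Dmac2. Ndufa4, first named as a complex I subunit, is now placed with complex IV. In the other direction, 8 tested genes carry such names in RefSeq but other names in the files and so are not members. Their differences ran from -0.076 (Ndufb1) to 0.20 (Ndufaf8), and limma called none of them.

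RNA was measured in the liver of mouse pups on 8 single-colour arrays, 4 wild-type and 4 knockout. Knockout stands here for littermates whose maternal chromosome lacked the miR-379/miR-410 cluster of microRNAs. All pups were on the C57BL/6J background. They were taken by caesarean section at E19.5, kept warm without their mother and killed after 4 h, and fragments of the large liver lobe were frozen. The labels describe the replicates as biological. The deletion was inherited, so it was not limited to a cell type of the liver. The comparison asks how the newborn liver transcriptome differs without this maternally expressed microRNA cluster. A level is the log2 signal of a probe less the 75th percentile of its array, and differences are knockout minus wild-type with a standard error (SE) from limma.

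The 8 arrays shared 1 slide with a column for each genotype, so that an effect of the column cannot be told apart from one of the deletion. The share of spots well above background ran from 58.6% to 66.2%. Mirg, a transcript of the deleted region, ran from 2.11 to 2.24 in wild-type and from -0.91 to -0.20 in knockout (limma adjusted p = 0.000326). When each array was fitted as a weighted sum of the other arrays of its group, wild-type 4 left a residual SD of 0.26, where wild-type 1 to 3 left between 0.28 and 0.41. Knockout 4 left 0.20, where knockout 1 to 3 left between 0.25 and 0.32. Xist, the female-specific X transcript, was well above background on 0 wild-type arrays and on 3 knockout arrays, at 1.72, 1.52 and -0.14 in knockout 1, 2 and 4. Ddx3y, a Y-linked gene, was at -7.47 and -7.45 in knockout 1 and 2 and at 2.30 and 1.81 in knockout 3 and 4. In wild-type it was at -7.67 in wild-type 3 and from 1.39 to 2.21 in the other 3 arrays. Knockout 4 thus had signal of both genes and wild-type 3 of neither, and the Xist signal was unequal between the genotypes. Whether each replicate 4 array came from an independent pup could not be settled. The SEs and p-values, which treat the arrays as independent, may therefore rest on fewer animals than arrays. Counts are therefore also given without both replicate 4 arrays and with Xist as a covariate. Hepatocyte markers (Alb, Apoa1 and 7 others) were high on all arrays, with list means of 8.73 to 8.94 in wild-type and 8.85 to 8.89 in knockout.

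None of the 87 respiratory chain genes passed the test, and the set as a whole showed small differences between genotypes. Of these genes 42 were higher and 45 lower in knockout, with a median difference of -0.0019 against 0.027 over all 23526 genes tested. limma called 0 of 87 after adjustment over all genes, where 0.217% of all genes (51) were called, 0.0383% as higher and 0.179% as lower. At an unadjusted p under 0.05 there was 1 member, Uqcrb, where 13.3% of all genes reached that value. The groups did not overlap in 2 members, Ndufc2 and Sdha, against 9.05% of all genes. The arrays measure whole liver, in which fewer cells of a type and less RNA per cell cannot be told apart.

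The intervals of these genes were narrow. The median 95% interval reached 0.17 to either side of the difference, against 0.26 over all genes. The interval lay within 0.5 log2 of 0 for 83 of 87 members, or 95.4%, against 66.9% of all genes. The exceptions were Cox6a2, Cox7a1, Cox6b2 and Ndufa4l2, and the first 3 of these are isoforms known from muscle or testis. The median SD within a group was 0.078, against 0.16 over all genes, from 0.029 in Sdha to 0.40 in Cox7a1. Narrow intervals were not particular to the members. In the pathway lists described below, the share within 0.5 log2 of 0 ran from 90.9% (nucleotide exchange and uncoupling) to 100% (citrate cycle and pyruvate enzymes). Without both replicate 4 arrays limma called 0 members (0.0255% of all genes), and 0 reached an unadjusted p under 0.05 (7.33% of all genes). With the Xist level as a covariate limma called 0 members and 18 of all genes. At an unadjusted p under 0.05 there were 0 members (13.3% of all genes). Xist was near background on every wild-type array, so this fit separates Xist from genotype mainly through the knockout arrays. It therefore cannot settle how far sex affects the members.

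**Figure D1:**
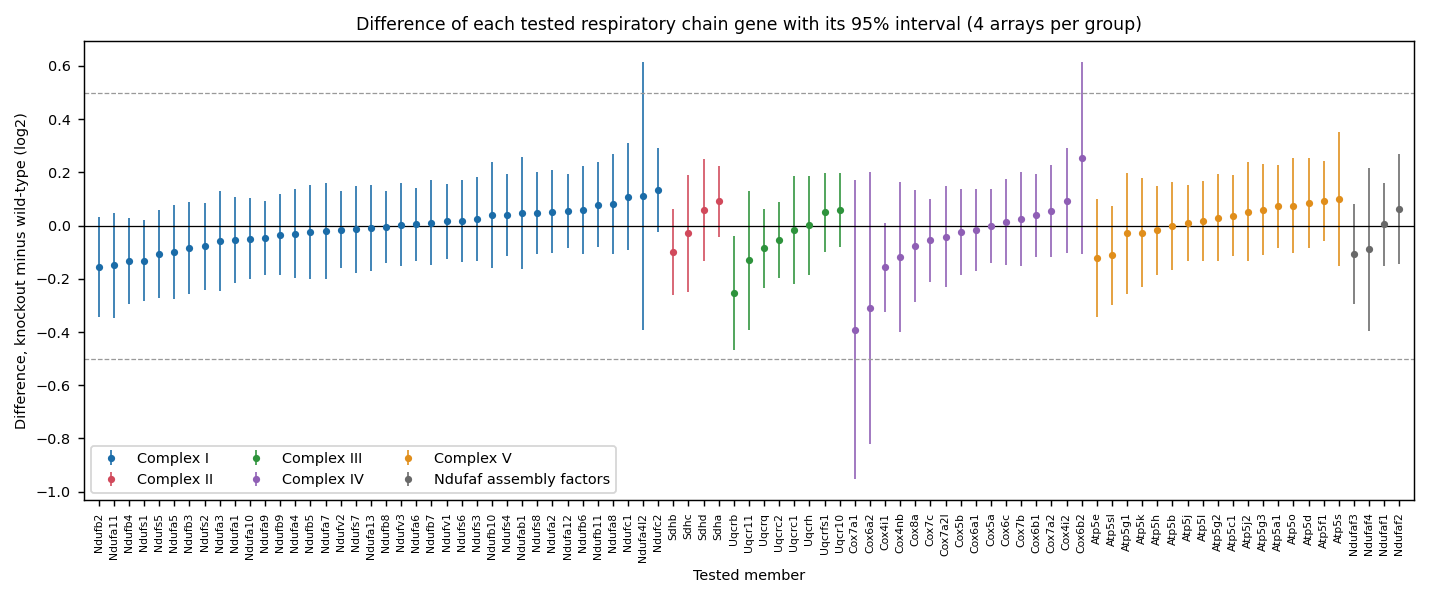
Difference of each tested respiratory chain gene (vertical axis, log2, knockout minus wild-type) with its 95% interval from limma, 4 arrays per group. Genes are coloured by complex and ordered by difference within it, and dashed lines mark 0.5 log2 on either side of 0. Uqcrb is the member whose interval leaves out 0, and 4 intervals cross a dashed line.

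The split between higher and lower members depended on the scaling of the arrays. After quantile normalization 27 members were higher and 60 lower, or 69.0% lower, against 47.6% of all genes. The median difference of the members was then -0.037 and that of all genes 0.0090. With normexp background correction and percentile scaling the split was 46 higher and 41 lower. No direction is therefore given for the set.

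Promoters of the members were examined for motifs that the gene names did not use. RefSeq promoter windows (GRCm38.p6, 250 bases before to 50 after the gene start) matched 74 of the 90 members. The transcription factor NRF1, a known activator of respiratory chain genes, binds a palindrome whose 7-base core was searched as GCGCATG on both strands. It lay in the windows of 14 members (18.9%) and of 1192 of all 27025 genes (4.41%). Matches on the 2 strands can overlap, and such pairs were joined into a full palindrome, which 6 members had. The ETS core CCGGAAG, bound by the GABP factor among others, was found on either strand in 17 members (23.0%) and 9.93% of all genes. The TATA sequence TATAAA was found on either strand in 7 members (9.46%) and 15.7% of all genes.

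The NRF1 matches with their flanks lay wholly upstream of the gene start in 10 members. A window of complexes I, II, IV and V and of an assembly factor is shown, because the core was found in genes of different complexes. Binding of NRF1 to these windows was not measured. Capitals mark the match, and sequences run 5′ to 3′ on the gene's strand. The windows are chr4:40279472-40279518 (minus strand) for Ndufb6, chr4:140961198-140961244 (plus) for Sdhb, chr5:115349091-115349140 (minus) for Cox6a1, chr15:102671060-102671109 (minus) for Atp5g2 and chr4:24897950-24897999 (plus) for Ndufaf4.
Ndufb6: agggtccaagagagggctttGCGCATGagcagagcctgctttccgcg
Sdhb: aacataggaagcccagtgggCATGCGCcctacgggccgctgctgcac
Cox6a1: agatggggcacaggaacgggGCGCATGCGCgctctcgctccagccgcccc
Atp5g2: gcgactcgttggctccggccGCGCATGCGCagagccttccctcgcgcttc
Ndufaf4: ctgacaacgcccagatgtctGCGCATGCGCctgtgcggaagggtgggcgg
Cox6a1, Atp5g2 and Ndufaf4 hold the full palindrome, while Ndufb6 and Sdhb hold the core on opposite strands. The median difference of the 14 genes with a match was -0.017, from -0.15 (Ndufa11) to 0.082 (Ndufa8), and that of the 58 tested members without a match was 0.0072. Nrf1 itself was at 1.69 ± 0.19 in wild-type and 1.85 ± 0.069 in knockout (SD, n = 4; limma adjusted p = 0.525).

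In complex I, the NADH dehydrogenase, no gene passed the test. The 38 genes split into 18 higher and 20 lower, with a median difference of -0.0079, from -0.16 for Ndufb2 to 0.13 for Ndufc2. The nuclear-encoded core, the 7 subunits that hold the flavin and the iron-sulfur clusters (grouped here by textbook role after the values were seen), split into 3 higher and 4 lower, from -0.13 for Ndufs1 to 0.049 for Ndufs8. For the 29 accessory subunits the median was -0.0050.

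Ndufs1 encodes the largest core subunit, in the arm that accepts electrons from NADH. Its levels (probe at chr1:63190360-63190419, mm9) were 5.12, 5.10, 5.04 and 5.02 in wild-type and 4.95, 5.03, 4.87 and 4.89 in knockout. Knockout 2 lay inside the wild-type range and the other 3 knockout arrays below it. The difference was -0.13 (SE 0.067, limma adjusted p = 0.432).

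Ndufc2, an accessory subunit of the membrane arm (probe at chr7:104556135-104556194), was one of the members whose groups did not overlap. Its levels were 5.19, 5.09, 5.20 and 5.14 in wild-type and 5.23, 5.20, 5.37 and 5.34 in knockout. The gap was narrow, since wild-type 3 and knockout 2 both rounded to 5.20. The difference was 0.13 (SE 0.069, limma adjusted p = 0.436).

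Ndufb2 and Ndufb4 are accessory subunits of the membrane arm as well. Ndufb2 was at 5.16, 5.40, 5.42 and 5.36 in wild-type and 5.22, 5.27, 5.10 and 5.13 in knockout, a difference of -0.16 (SE 0.082, limma adjusted p = 0.442). Wild-type 1 alone brought the groups of Ndufb2 into overlap, and without that array the difference was -0.21 (limma adjusted p = 0.222). Without both replicate 4 arrays it was -0.13 (limma adjusted p = 0.793). Ndufb4 was at 5.34, 5.48, 5.50 and 5.41 in wild-type and 5.36, 5.37, 5.20 and 5.27 in knockout, a difference of -0.13 (SE 0.071, limma adjusted p = 0.449). Ndufa4l2, a hypoxia-inducible relative of Ndufa4, had the widest spread in complex I, at 3.51, 3.79, 4.43 and 4.12 in wild-type and 4.53, 3.95, 3.95 and 3.86 in knockout. Its interval ran from -0.39 to 0.61, which takes in a difference of 0.5 log2 upwards but not downwards. Ndufa4 was at 4.96 ± 0.046 and 4.93 ± 0.10 (SD, n = 4).

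The Ndufaf assembly factors, which guide complex I together and are not part of the finished enzyme, had a median difference of -0.042, with 2 higher and 2 lower. Ndufaf3 and Ndufaf4 act together early in assembly, and differed by -0.11 (SE 0.082) and -0.090 (SE 0.13). Ndufaf1 was at 1.79, 1.63, 1.65 and 1.63 in wild-type and 1.66, 1.63, 1.69 and 1.74 in knockout, a difference of 0.0055 (SE 0.068). Ndufaf2 differed by 0.062 (SE 0.090), and the smallest limma adjusted p of the 4 was 0.579.

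In complex II, succinate dehydrogenase, which also runs a step of the citrate cycle, no gene passed the test and the 4 genes split into 2 higher and 2 lower. Sdha, the flavoprotein that oxidises succinate (probe at chr13:74460310-74460369), had the smallest spread of all members. Its levels were 4.48, 4.50, 4.56 and 4.50 in wild-type and 4.57, 4.61, 4.62 and 4.61 in knockout. Every knockout array was above every wild-type array, by a narrow margin between wild-type 3 and knockout 1. The difference was 0.092 (SE 0.059, limma adjusted p = 0.515).

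Its iron-sulfur partner Sdhb lay the other way. Sdhb was at 5.93, 6.07, 6.13 and 5.99 in wild-type and 5.99, 5.94, 5.88 and 5.91 in knockout, with wild-type 1 and 4 inside the knockout range, and differed by -0.099 (SE 0.070, limma adjusted p = 0.554). The membrane anchors Sdhc and Sdhd differed by -0.029 (SE 0.096) and 0.059 (SE 0.083). For Sdhc the sign turned without replicate 4 (0.0067).

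Complex III, which passes electrons from ubiquinol to cytochrome c, held the member with the smallest p. Its 8 genes split into 3 higher and 5 lower, with a median of -0.035, and none passed the test. The large core proteins and the Rieske iron-sulfur protein stayed close to 0, with differences of -0.016 (Uqcrc1), -0.054 (Uqcrc2) and 0.050 (Uqcrfs1). The 5 small subunits ran from -0.25 (Uqcrb) to 0.058 (Uqcr10).

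Uqcrb encodes a small subunit next to the site where quinone binds (probe at chr13:67001654-67001713). Its levels were 5.42, 5.77, 5.81 and 5.63 in wild-type and 5.39, 5.43, 5.38 and 5.43 in knockout. The knockout arrays lay close together, 3 wild-type arrays were above all of them, and wild-type 1 lay among them. The difference was -0.25 (SE 0.094, 95% interval -0.47 to -0.039), with an unadjusted p of 0.0258 and a limma adjusted p of 0.303. Without wild-type 1 it was -0.33 (limma adjusted p = 0.107), and without both replicate 4 arrays -0.27 (limma adjusted p = 0.709). A further probe of the gene gave -0.28 and another -0.055.

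The other small subunits of complex III showed less. Uqcrq, which sits beside the quinone site, was at 7.00, 6.91, 7.07 and 6.97 in wild-type and 6.91, 6.86, 6.90 and 6.94 in knockout, a difference of -0.086 (SE 0.065, limma adjusted p = 0.576). Uqcr11 was at 6.08, 6.31, 6.46 and 6.33 in wild-type and 6.34, 6.29, 5.98 and 6.05 in knockout, so that knockout 1 and 2, the arrays with high Xist, lay close to wild-type 2 and 4 and knockout 3 and 4 below all wild-type arrays. Its difference was -0.13 (SE 0.11, limma adjusted p = 0.631). With Xist as a covariate it was -0.36 (SE 0.17, limma adjusted p = 0.410).

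Complex IV, cytochrome c oxidase, had the widest differences because of its tissue-restricted isoforms. Of 16 tested genes 6 were higher and 10 lower, with a median of -0.020, and none passed the test. The 10 common subunits that most tissues use ran from -0.16 (Cox4i1) to 0.055 (Cox7a2). Cox4i1, the common form of the subunit that binds regulatory ATP (probe at chr8:123197924-123197983), was at 7.40, 7.51, 7.51 and 7.43 in wild-type and 7.21, 7.43, 7.25 and 7.34 in knockout. Knockout 2 was above wild-type 1, and the other knockout arrays lay below all wild-type arrays. The difference was -0.16 (SE 0.073, limma adjusted p = 0.399).

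Cox4i2, the lung and hypoxia form of the same subunit, differed by 0.094 (SE 0.086, limma adjusted p = 0.644). Of the other common forms, Cox6a1 differed by -0.017 (SE 0.068), Cox6b1 by 0.039 (SE 0.069), Cox7a2 by 0.055 (SE 0.075), Cox7b by 0.023 (SE 0.077) and Cox8a by -0.077 (SE 0.092).

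The muscle-type isoforms Cox6a2, Cox7a1 and Cox8b are used mainly by heart and skeletal muscle, and here spread widely or were too dim to test. Cox7a1 (probe between chr7:30970337-30970948) was at 0.89, 2.00, 1.90 and 1.87 in wild-type and 1.52, 1.42, 1.01 and 1.14 in knockout. Wild-type 1 was the lowest array of all, and the other 3 wild-type arrays were above every knockout array. The difference was -0.39 (SE 0.25, limma adjusted p = 0.509). Leaving out wild-type 1 made it -0.65 (limma adjusted p = 0.107), and leaving out both replicate 4 arrays made it -0.28 (limma adjusted p = 0.838).

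Cox6a2 was at -1.37, -1.34, -0.44 and -0.86 in wild-type and -1.02, -1.15, -1.56 and -1.52 in knockout. Wild-type 3 and 4 were the highest arrays and wild-type 1 and 2 lay among the knockout arrays. The difference was -0.31 (SE 0.22, limma adjusted p = 0.562). Cox8b was well above background on 2 wild-type arrays and on 0 knockout arrays, at -6.84, -6.25, -5.32 and -5.58 in wild-type and -6.50, -6.98, -6.47 and -7.76 in knockout. It was not tested, and no fold is given because the wild-type mean of -6.00 was under the dimmest signal counted as well above background on 3 of the 4 wild-type arrays.

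Markers of skeletal muscle were also lower in knockout, and their part in the values of these isoforms was not tested. Of 10 such markers 8 were tested, and 7 were lower and 1 higher in knockout. At an unadjusted p under 0.05 there were 6, all lower, where 13.3% of all genes reached that value. limma called 1 (0.217% of all genes), Myl1, a myosin light chain (-3.27, limma adjusted p = 0.0281). The list's mean level ran from -3.45 to -2.06 in wild-type and from -4.28 to -4.06 in knockout. Wild-type 1 was the lowest wild-type array and wild-type 3 the highest in that list, in Myl1 (-2.24 and -0.58) and in Tnnc2, a fast troponin (-1.41 and 0.057). Wild-type 1 was below every knockout array in Cox7a1 and also in the marker Mylpf (-5.15, knockout -4.76 to -4.33). It was above every knockout array in the other tested markers, among them Myl1, Tnnc2 and Acta1, the skeletal actin. Ckm and Myh3 were well above background on fewer than 4 arrays. Of 6 heart markers 5 were tested, 4 were lower and 1 higher, and limma called 0. Nppa, an atrial hormone, was at -0.017 and Myh6, a cardiac myosin, at -0.14. The largest difference was in Tnnt2 (-0.41, limma adjusted p = 0.165), with wild-type from -0.42 to -0.29 and knockout from -0.88 to -0.44. Myl7, the marker that was higher, was at 0.18. Of 5 markers of brown fat, another tissue that uses Cox7a1 and Cox8b, 3 were tested, all 3 were lower and limma called 0. The brown fat list mean ran from -3.29 to -2.11 in wild-type and from -3.20 to -2.59 in knockout, and Ucp1, its defining uncoupling protein, was well above background on 1 wild-type array and 0 knockout arrays.

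**Figure D2:**
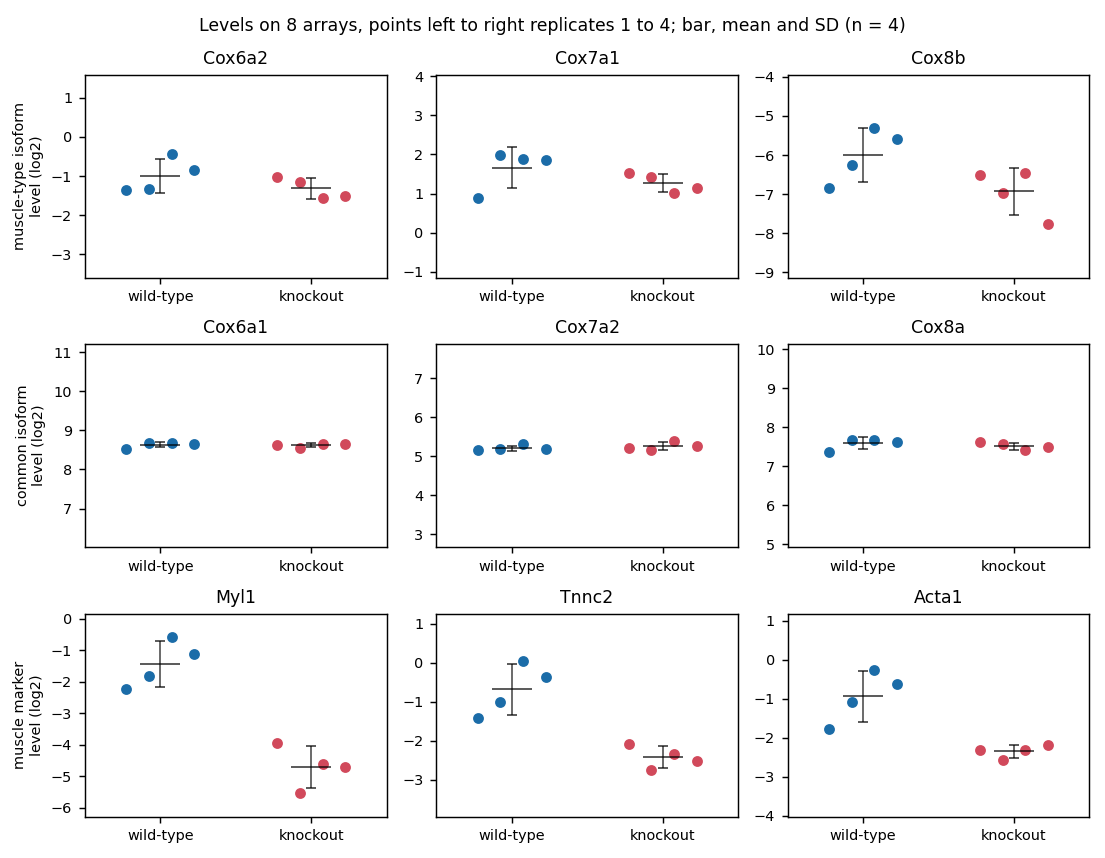
Level on each of 8 arrays (log2 signal relative to the array's 75th percentile) of the muscle-type isoforms Cox6a2, Cox7a1 and Cox8b, their common partners Cox6a1, Cox7a2 and Cox8a, and the muscle markers Myl1, Tnnc2 and Acta1. Points are replicates 1 to 4 from left to right and bars the mean and SD (n = 4). The groups overlap in all 6 Cox genes and do not overlap in the 3 muscle markers.

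Of the testis-type isoforms, Cox7b2 and Cox8c were not well above background on any array. Cox6b2 was tested and was at 2.32, 2.85, 2.88 and 2.89 in wild-type and 3.20, 3.16, 2.79 and 2.82 in knockout. Wild-type 1 was the lowest array, knockout 1 and 2 were the highest, and knockout 3 and 4 lay just under the other wild-type arrays. The difference was 0.26 (SE 0.16, limma adjusted p = 0.504). With the Xist level as a covariate the sign turned (-0.029).

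Complex V, the ATP synthase, had 11 genes higher and 6 lower, with a median of 0.029, and none passed the test. After quantile normalization this median was -0.022. The catalytic head and central stalk ran from -0.12 (Atp5e) to 0.085 (Atp5d), with the catalytic subunit Atp5b at -0.0019 and its partner Atp5a1 at 0.072. The peripheral stalk, which holds the head still, ran from -0.018 (Atp5h) to 0.092 (Atp5f1).

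Atp5e, the smallest subunit of the central stalk, was at 6.58, 6.82, 6.87 and 6.77 in wild-type and 6.78, 6.73, 6.51 and 6.53 in knockout. As in Uqcr11, knockout 3 and 4 were the lower knockout arrays and wild-type 1 the lowest wild-type array. The difference was -0.12 (SE 0.097, limma adjusted p = 0.595), and -0.29 with Xist as a covariate (SE 0.15, limma adjusted p = 0.453). Atp5f1, the stalk subunit b, was at 4.79, 4.85, 4.74 and 4.76 in wild-type and 4.87, 4.78, 4.92 and 4.94 in knockout, a difference of 0.092 (SE 0.067, limma adjusted p = 0.562). Knockout 2 was the array that overlapped with wild-type. Atp5d, which sits beside Atp5e, differed by 0.085 (SE 0.074, limma adjusted p = 0.627), and Atp5sl, which is no subunit, by -0.11 (SE 0.081, limma adjusted p = 0.562).

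The 3 genes of subunit c, Atp5g1, Atp5g2 and Atp5g3, encode the same mature protein, the rotating ring in the membrane. They differed by -0.029 (SE 0.10), 0.029 (SE 0.072) and 0.060 (SE 0.075). Atp5g1 had the widest wild-type spread of the 3, from 6.39 in wild-type 1 to 6.85 in wild-type 3, with knockout between 6.53 and 6.63. The probes of Atp5k, and of Cox5b in complex IV, are placed by the files on other chromosomes (Y and 15) than RefSeq places the genes (5 and 1), so their signals may include near-identical copies. Their differences were -0.026 and -0.023.

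Arrays of the same genotype stood apart from each other in these genes. For each gene the deviation from its mean over 8 arrays was averaged over the genes of a complex. In wild-type 1 this mean deviation was -0.047 in complex I, -0.12 in II, -0.070 in III, -0.090 in IV and -0.099 in V, against -0.032 over all genes. In wild-type 3 it was 0.073, 0.094, 0.11, 0.10 and 0.051 in the same order. On this measure the knockout mean less the wild-type mean was -0.0097, 0.0056, -0.054, -0.045 and 0.019 in the same order. These differences are averaged over the arrays of each group, so they are not directly comparable with values of a single array.

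The Ndufaf assembly factors stood the other way in wild-type 1, at 0.12, as did the other assembly factors (0.13, 30 genes) and the mitochondrial ribosome (0.11, 78 genes). Genes of mitochondrial DNA stood with the subunits, at -0.18. Wild-type 1 was the lowest array in 37 of 87 members, or 42.5%, against 26.3% of all genes, and wild-type 3 the highest in 31, or 35.6%, against 10.5%. For the mitochondrial ribosome, wild-type 1 was the highest array in 38 of 78 genes, or 48.7%, against 22.4% of all genes. Among knockout arrays, 3 and 4 were low in complex III (-0.071 and -0.067) and complex IV (-0.065 and -0.072).

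The signs of these sets in wild-type 1 were the same after quantile normalization, from -0.018 in complex I to -0.10 in complex II, and at 0.12 in the Ndufaf factors, while the value over all genes turned to 0.0069. Wild-type 1 was then the lowest array in 0 of 8 complex III genes, where it had been lowest in 2. The share of members lowest in wild-type 1 was then 27.6%, against 22.8% of all genes, while wild-type 3 was highest in 49.4% of members against 11.3%. The list mean of 10 erythroid markers was 5.17 in wild-type 1, between 5.58 and 5.84 in wild-type 2 to 4, and between 5.79 and 5.92 in knockout. That of 7 macrophage markers was 4.46 in wild-type 1, between 4.06 and 4.19 in wild-type 2 to 4, and between 3.97 and 4.22 in knockout. For 5 endothelial markers it was 2.35 in wild-type 1, between 2.00 and 2.07 in wild-type 2 to 4, and between 1.97 and 2.06 in knockout. Wild-type 3, the array high in the members, had the highest list mean of 10 exocrine pancreas markers, at 1.67. This pancreas mean was 0.76 in wild-type 4, -1.47 in wild-type 1 and -3.20 in wild-type 2, and the knockout arrays lay between -2.85 and -2.61. Wild-type 3 was also the highest array in the skeletal muscle list and in that of 6 stellate and fibroblast markers. The stellate and fibroblast mean ran from 2.81 to 3.02 in wild-type and from 2.50 to 2.72 in knockout. All 6 were lower in knockout, 5 at an unadjusted p under 0.05 (13.3% of all genes), and limma called 0 (0.217% of all genes). The part of these cell types in the array pattern was not tested. Without wild-type 1 limma called 0 members (0.383% of all genes), and 5 members reached an unadjusted p under 0.05 (5.75%), against 14.8% of all genes.

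**Figure D3:**
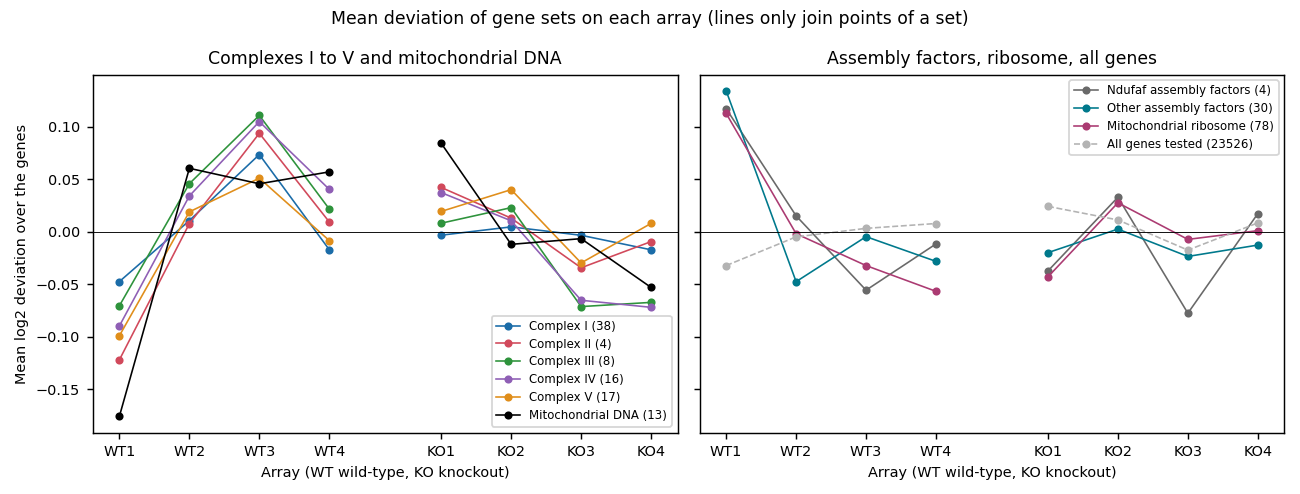
Mean log2 deviation from each gene's mean over 8 arrays (vertical axis), averaged over the genes of each set, for arrays WT1 to WT4 and KO1 to KO4. The left panel shows complexes I to V and genes of mitochondrial DNA, the right panel the Ndufaf factors, other assembly factors, the mitochondrial ribosome and all genes tested, with the number of genes in brackets. WT1 is low in the left panel and high for the assembly factors and the ribosome in the right panel.

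**Figure D4:**
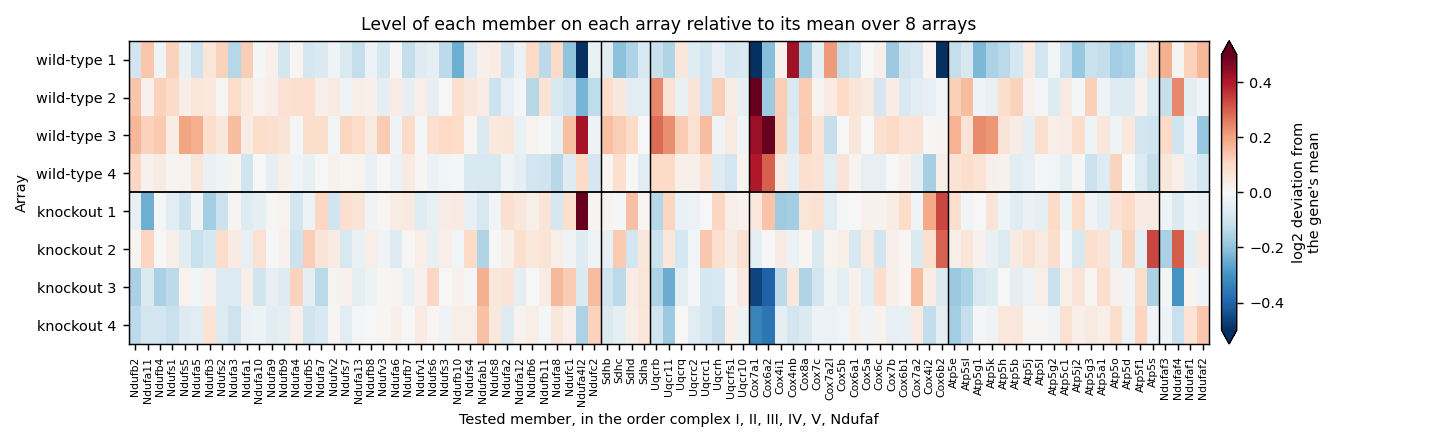
Log2 deviation of each tested member (columns, grouped by complex) from its mean over 8 arrays, with 1 row per array and the colour scale ending at 0.5 on either side. Cox7a1, Cox6a2, Cox6b2 and Ndufa4l2 show the strongest colours, and most other columns are pale in every array.

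The rest of the pathway gave no call either, in lists chosen by known function, where 0.217% of all genes were called. At that rate, lists of this size would be expected to hold few calls or none. The share at an unadjusted p under 0.05 ran from 0% to 11.8% (regulators of biogenesis) by list, against 13.3% of all genes. The 13 protein-coding genes of mitochondrial DNA split into 4 higher and 9 lower, with a median of -0.0086. COX2, a catalytic subunit of complex IV, was at 8.99 ± 0.13 and 8.90 ± 0.071 (SD, n = 4; limma adjusted p = 0.649). ND6, a complex I subunit read from the opposite strand to the other 12, was at -0.99, -0.30, -0.66 and -0.82 in wild-type and -0.29, -0.71, -0.31 and -0.24 in knockout, a difference of 0.30 (SE 0.16, limma adjusted p = 0.452). Knockout 2 lay inside the wild-type range, and wild-type 2 lay among the knockout arrays.

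Assembly factors outside the name rule split into 11 higher and 19 lower of 30. Cox20, a chaperone of the COX2 protein, was at 2.51, 2.50, 2.64 and 2.50 in wild-type and 2.75, 2.61, 3.03 and 2.85 in knockout, a difference of 0.28 (SE 0.097, limma adjusted p = 0.278). Only knockout 2 lay below a wild-type array. Oxa1l, which inserts proteins into the inner membrane, differed by -0.17 (SE 0.071, limma adjusted p = 0.364).

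Electron carriers and other entry points split into 4 higher and 15 lower of 19, with a median of -0.059. Cycs, cytochrome c, differed by -0.041 (SE 0.064) and Cyc1, the cytochrome c1 of complex III, by -0.064 (SE 0.089). Prodh, which feeds electrons from proline, differed by -0.29 (SE 0.13, limma adjusted p = 0.393), and Gpd2, the mitochondrial glycerol phosphate dehydrogenase, by -0.19 (SE 0.090, limma adjusted p = 0.405).

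The citrate cycle and pyruvate enzymes split into 10 higher and 8 lower of 18. Pcx, pyruvate carboxylase, was at 7.03, 6.90, 7.06 and 6.91 in wild-type and 6.85, 6.79, 6.82 and 6.71 in knockout, so the groups did not overlap. Its difference was -0.18 (SE 0.070, limma adjusted p = 0.325). Sucla2, a subunit of succinyl-CoA ligase, differed by -0.094 (SE 0.066, limma adjusted p = 0.551).

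Regulators of mitochondrial biogenesis split into 8 higher and 9 lower of 17. Ppargc1a, a coactivator that raises expression of respiratory genes, was at 3.16, 3.88, 3.90 and 3.84 in wild-type and 3.90, 3.69, 3.44 and 3.55 in knockout, a difference of -0.050 (SE 0.18, limma adjusted p = 0.918). Wild-type 1 was the lowest array here too. Ppargc1b, its relative, differed by -0.29 (SE 0.12, limma adjusted p = 0.357) and Polg, the mitochondrial DNA polymerase, by -0.16 (SE 0.063, limma adjusted p = 0.343). Tfam, Gabpa and Esrra, which are transcription factors of these genes or of mitochondrial DNA, differed by 0.0090 (SE 0.079), 0.12 (SE 0.10) and -0.15 (SE 0.093).

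Genes of nucleotide exchange and uncoupling split into 6 higher and 5 lower of 11. The ADP/ATP carriers Slc25a4 and Slc25a5 differed by -0.16 (SE 0.092) and 0.071 (SE 0.081). Atpif1, the inhibitor of ATP synthase, differed by 0.13 (SE 0.087), Ucp2, a carrier of the uncoupling protein family, by 0.19 (SE 0.17), and Ckmt1, a mitochondrial creatine kinase, by 0.17 (SE 0.085, limma adjusted p = 0.418). The mitochondrial ribosome split into 36 higher and 42 lower of 78, with a median of -0.0033. Its extremes were Mrps2 (-0.24, limma adjusted p = 0.368) and Mrps14 (0.22, limma adjusted p = 0.255).

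Further probes were available for 30 members, and their differences spread by a median of 0.073 within a gene. In 10 genes the probes differed in sign. The widest spread was in Ndufb5, from -0.11 to 0.32, and the probe at 0.32 was among the dimmest of that gene. Of all 130 member probes that passed the filter, 3 reached an unadjusted p under 0.05. Of all genes, each read from a single probe, 13.3% reached that value. The 3 were 2 probes of Uqcrb and a dimmer probe of Atp5c1, the central stalk subunit gamma. This Atp5c1 probe was at 0.35 where the brighter probe gave 0.036.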

How the data were processed

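Scanner output was made with Agilent Feature Extraction 10.10, according to the submitters' processing notes, and the authors deposited it as files of spot intensity on a linear scale, with coordinates on mm9 per the file headers. They also deposited a value table in log2 units of 27084 probes. Its columns track each array's own log2 median signal (r from 0.99995 to 0.999994), and its normalization was not given in the sources used here. It served as an alternative.

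For each array, the 75th percentile was subtracted from log2 processed signals. Controls and outlier-flagged spots were not used, repeated spots were averaged, and 87 probes with no usable spot on some array were dropped. A probe was kept when well above background on at least 4 of 8 arrays, and the kept probe with the highest mean stood for its gene. Groups were compared with limma 3.58.1 (R 4.3.3; lmFit and eBayes, two-sided) over 23526 genes, adjusted by Benjamini-Hochberg, and called under 0.05. Members kept the file's gene name, and other genes were renamed through RefSeq for 27235 probes by accession and 565 by synonym. In simulated arrays of these 23526 genes, 46.5%, 90.0% and 97.0% of genes changed by 0.5, 1 and 2 log2 were recovered for this comparison, with 3.71% of calls on unchanged genes. The simulated arrays were independent and normally distributed, which is not settled for the replicate 4 arrays. More genes were changed in them than the 51 called in the data, which eases the adjusted threshold. Recovery in the data may therefore be lower.

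Named were, per complex and for the Ndufaf factors, the 4 genes with the smallest p, the isoforms and their partners, the subunit c genes, a set of regulators and carriers, and the 2 smallest p of each pathway list. Other genes, such as Ndufa11, Uqcrc1 or Atp5c1, were named after their values were seen, as were the groups of subunits by role. The members, lists and rules were chosen with earlier results of these data known. Precision is limited by the number of arrays. Same-numbered arrays did not deviate together. Alternatives changed the scaling, the background, the signal, the filter, the probe choice, the variance model or the threshold, added covariates or the replicate block, or left arrays out.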

Additional observations from a re-analysis of the deposited data

Results flagged for a closer look

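In 16 of 136 groups of 4 arrays checked, 1 array stood apart from the other 3 by Dixon's criterion, which chance alone gives in about 1 group in 20. The groups come from the same 8 arrays and are not independent, and the share over all genes is not given here. Over all genes, wild-type 1 was the lowest array in 26.3% and the highest in 22.4%. In 9 of the 16 flagged groups, wild-type 1 was the array that stood apart. It was low in Cox6b2 (2.32, others 2.85 to 2.89), Cox7a1 (0.89, others 1.87 to 2.00), Cox8a (7.37, others 7.63 to 7.68), Ppargc1a (3.16, others 3.84 to 3.90), Ucp2 (3.18, others 3.79 to 3.85) and the mean deviation of mitochondrial DNA genes (-0.18, others 0.046 to 0.060). It was high in Ndufaf1 (1.79, others 1.63 to 1.65), Gpd2 (-0.23, others -0.48 to -0.45) and Ppargc1b (-2.41, others -2.87 to -2.83).

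Among knockout arrays, knockout 1 was low in Sdha (4.57, others 4.61 to 4.62) and high in Ndufa4l2 (4.53, others 3.86 to 3.95). Knockout 2 was low in Ndufaf3 (0.41, others 0.54 to 0.56) and in ND6 (-0.71, others -0.31 to -0.24), and high in Slc25a5 (4.13, others 4.07). Knockout 4 was low in Cox7b (6.48, others 6.54 to 6.56). Wild-type 3 was high in Cox20 (2.64, others 2.50 to 2.51). The cause of these single-array values was not tested.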

How the results depend on the processing

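The count of respiratory chain genes called was 0 under all 23 alternatives, with the smallest limma adjusted p among them between 0.107 (without wild-type 1) and 0.709 (without both replicate 4 arrays). The number with an unadjusted p under 0.05 ran from 0 to 9, the latter (10.3%, against 14.3% of all genes) after normexp and quantile normalization together. Of 769 comparisons of 35 named members with an alternative, 738 kept the direction, 31 changed sign without a call, and 0 passed the threshold. The count over all genes moved more, from 51 to 80 after quantile normalization, 132 with normexp, 149 with normexp and quantile normalization, 126 from the median signal, 140 in the authors' deposited table, 19 without a filter, 149 with trended robust variances, 18 and 91 with Xist or Ddx3y as a covariate, 6 without both replicate 4 arrays and 17 at an adjusted p under 0.01. When each array was left out in turn, the count ran from 14 to 90. The median of complex V was -0.022 after quantile normalization, and the cause was not tested. Over all settings the medians ran from -0.036 to 0.012 in complex I, -0.047 to 0.055 in II, -0.093 to -0.014 in III and -0.060 to -0.0068 in IV. Same-numbered arrays share only a number (correlations of their deviations from -0.11 to 0.069), and with the replicate block limma called 19 genes and 0 members. The mean deviations in wild-type 1 under other scalings were added after seeing the data. Probes in the dim range have only a bound, which leaves Cox7b2, Cox8b and Cox8c without a comparison.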
